A study of Mus musculus with 4 samples.

Results

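Phf2 is a chromatin protein with a PHD finger that reads trimethylated lysine on histone tails at promoters. The genes described here are 10 genes of the Notch pathway: the 4 receptors Notch1, Notch2, Notch3 and Notch4, the ligands Jag1 and Dll1, and Hes1, Hey1, Hey2 and Heyl, which are known targets of Notch signalling. They were chosen by name from the 24391 gene symbols of the count table, and each of the 10 was found. All 10 passed the filter on low counts that left 13668 genes for testing, but Notch4 passed it only through the counts of the *Phf2* KO libraries.

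RNA-seq had been performed on mouse embryonic fibroblasts (MEFs), primary cells from E13.5 embryos held in quiescence. There were 2 WT and 2 *Phf2* KO libraries, numbered as replicates 1 and 2, and the study's supplement calls them biological replicates. Both groups share the genotype Phf2 flox/flox, ERCre/+, in which a tamoxifen-dependent Cre recombinase is expressed from the Rosa26 locus, so that WT here means floxed Phf2 that was not deleted. The labels give tamoxifen for the *Phf2* KO libraries alone, and deletion was induced with 0.5 µM 4-hydroxytamoxifen over 7 days in medium with 2% charcoal-treated serum. The protocol text is worded alike for all 4 libraries. An effect of tamoxifen or of Cre activity therefore cannot be told apart from an effect of losing Phf2. In bulk RNA, fewer cells of a type and less RNA per cell cannot be told apart either.

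A Notch receptor is cut by a furin-type protease as it matures, meets a Jagged or Delta ligand on a neighbouring cell, and is then cut by an ADAM protease and by gamma-secretase. The freed intracellular part enters the nucleus and joins the DNA-binding protein Rbpj and a Mastermind co-activator at target genes. Hes and Hey genes are among the best known targets and encode basic helix-loop-helix repressors. In mesenchymal cells the pathway is known for its part in vascular mural cells and in skeletal and connective tissue precursors.

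Upstream sequence is shown for the receptor with the highest level (Notch2), for the receptor called higher in *Phf2* KO by both edgeR and DESeq2 once replicate number was in the fit (Notch3), and for Hey2, the gene that was below WT within both replicate numbers. Each is the 250 bases before a transcription start in RefSeq's promoter table for the assembly GRCm38.p6, matched exactly to NCBIM37 (mm9), the build of the deposited counts, and is written 5′ to 3′ on the strand of the gene. Capitals mark matches to letters searched on both strands: TGGGAA, the core that Rbpj is known to bind, and CACGNG, a box of the kind that Hes and Hey proteins are known to bind. The Notch2 window is chr3:97817211-97817460 on the forward strand, the Notch3 window chr17:32303836-32304085 on the reverse strand, and the Hey2 window chr10:30562590-30562839 on the reverse strand.
Notch2: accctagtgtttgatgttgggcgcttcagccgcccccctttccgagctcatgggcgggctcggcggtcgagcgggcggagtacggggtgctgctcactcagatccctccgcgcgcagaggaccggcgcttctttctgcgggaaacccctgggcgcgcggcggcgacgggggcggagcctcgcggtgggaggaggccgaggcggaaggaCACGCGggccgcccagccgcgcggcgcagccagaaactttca
Notch3: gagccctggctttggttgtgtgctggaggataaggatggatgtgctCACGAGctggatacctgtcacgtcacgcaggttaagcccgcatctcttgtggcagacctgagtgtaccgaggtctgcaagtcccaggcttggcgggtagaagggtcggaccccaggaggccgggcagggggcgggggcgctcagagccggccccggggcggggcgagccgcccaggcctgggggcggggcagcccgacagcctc
Hey2: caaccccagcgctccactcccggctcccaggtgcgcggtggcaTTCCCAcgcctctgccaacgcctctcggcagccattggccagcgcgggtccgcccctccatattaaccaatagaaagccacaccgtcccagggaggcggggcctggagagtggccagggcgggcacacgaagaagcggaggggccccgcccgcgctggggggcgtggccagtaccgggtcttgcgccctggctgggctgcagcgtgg

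The table held 8 windows for 7 of the 10 genes, with 2 for Dll1, and no entry for Hes1, Hey1 and Heyl. In the Hey2 window the capitals are the Rbpj core read on the opposite strand, at bases 207 to 202 before the start. It was the only match to the core among the 8 windows, and 21.6% of the 32851 windows of the same length in the table hold one. The box was found in 5 of the 8 windows, and in 23.5% of all windows. It holds the letter pair CG, of which the windows held from 4 (Notch4) and 13 (a Dll1 window) to 34 (Notch2), against a median of 6 over all windows. Windows of like CG content were not compared, so these shares do not show an excess of the box. In Notch2 it lay 42 to 37 bases before the start and in Notch3 204 to 199 bases before it. The Jag1 window held 2 boxes and each Dll1 window held 1, whereas the windows of Notch1 and Notch4 held neither motif. These windows were rich in G and C: 72.0% for Notch2, 68.8% for Notch3 and 71.6% for Hey2, against a median of 52.4% over all windows. A match is a description of these letters, and nothing on binding was measured here.

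The libraries held between 21094743 and 26094268 counts on 16903 to 17325 genes. The smallest level that 3 counts can give lay between 0.116 and 0.145 CPM, a unit of counts relative to library size. The WT libraries held 3244 and 3680 Phf2 counts and the *Phf2* KO libraries 1454 and 2158, or 138.2 ± 5.11 against 80.0 ± 13.9 normalized CPM (mean ± SD, n = 2 each). Reads over the whole gene do not separate the deleted part from the rest. The replicate number marked a large difference that both groups shared. Xist, the RNA of X inactivation, had 10042 and 8336 counts in replicates 1 of WT and *Phf2* KO but 3 and 12 in replicates 2, and the Y-linked gene Ddx3y followed the opposite pattern, so replicates 1 were from female and replicates 2 from male cells. Of the 13668 genes tested, 26.2% differed between replicate numbers at an adjusted p under 0.1 by edgeR's quasi-likelihood test with genotype in the fit. Genotype was therefore fitted in 2 ways, alone, which is the main result with 2 residual degrees of freedom, and with the replicate number as a term (a replicate block), which leaves 1. In the second fit edgeR took the spread from all genes pooled. Its intervals, p-values and calls therefore do not reflect how far the 2 ratios of a single gene lay apart.

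By genotype alone, none of the 10 Notch genes was called different between *Phf2* KO and WT. In edgeR's quasi-likelihood test each adjusted p was 0.999 (Benjamini-Hochberg over 13668 genes), and 0.00732% of all genes tested were called (1 gene, the Wnt antagonist Dkk2, named after its value was seen). At an unadjusted p under 0.05 the count of Notch genes was also 0, where 4.21% of all genes passed, and DESeq2 called 0 of them as well. Phf2 itself, the deleted gene, had a log2 fold change of -0.79 and was not called by edgeR either (adjusted p 0.999), whereas DESeq2 called it (0.00321). The lack of a call by edgeR therefore does not show that a gene was unchanged. With replicate number as a term, 3 of the 10 were called and all 3 were higher in *Phf2* KO: Notch1, Notch3 and Hes1. That fit called 11.0% of all genes, 5.77% higher in *Phf2* KO. In DESeq2 with the same term only Notch3 was called, of the 5 Notch genes to which it gave an adjusted p, where 3.67% of all genes were called. The median log2 fold change of the 10 genes was 0.31 by genotype alone (0.28 without Notch4), beside 0.0054 over all genes tested.

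**Figure D1:**
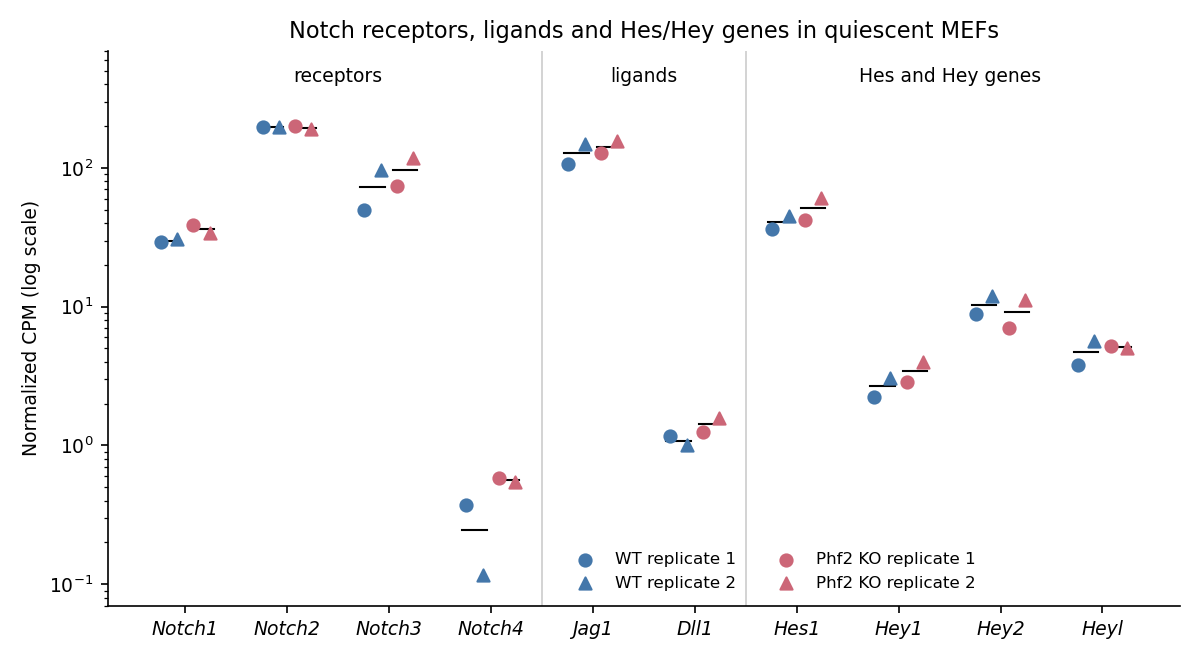
Normalized CPM on a log axis of the 10 Notch genes in each of the 4 libraries, with WT in blue and *Phf2* KO in red, circles for replicates 1, triangles for replicates 2 and a black line at each group mean (n = 2). Notch2 sits at one level in all 4 libraries, between 190.8 and 200.3, whereas the triangles of Notch3, Jag1, Hes1, Hey1 and Hey2 lie above the circles of the same colour.

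Counts were divided by exonic length to compare levels between genes, which gives RPKM from the normalized CPM. This length is the union of the exons of all annotated transcripts of a gene. Over the 4 libraries the mean level was highest for Jag1 at 23.2 RPKM, followed by Hes1 at 22.5, Notch2 at 18.7 and Notch3 at 10.5. Hey2 at 3.82 RPKM, Notch1 at 2.32, Hey1 at 1.38 and Heyl at 0.96 came lower, and Dll1 at 0.30 and Notch4 at 0.05 were the lowest. The ranges over libraries overlapped between Jag1 and Hes1, between Hes1 and Notch2, and between Hey1 and Heyl, so these neighbours were not separated beyond their spread. The other neighbours in this order did not overlap, although Hey2 and Notch1 came close. The lowest Hey2 level was 2.74 and the highest Notch1 level 2.71 RPKM. Their order depends on the length used: 14232 bases over 14 transcripts for Notch1 and 2550 bases over 1 for Hey2.

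Notch2 was the most abundant receptor per length in each library. Of the summed RPKM of the 4 receptors it took 69.5% and 56.9% in the WT libraries (replicate 1, then 2) and 61.3% and 51.4% in the *Phf2* KO libraries. Notch2 lies on chr3:97817461-97954290, forward strand (mm9), with 34 exon blocks. The WT libraries held 4763 and 5116 counts and the *Phf2* KO libraries 4151 and 4587, and the normalized CPM were 197.6, 197.2, 200.3 and 190.8 in the same order. The groups overlapped, at 197.4 ± 0.32 in WT and 195.6 ± 6.74 in *Phf2* KO (n = 2 each). The log2 fold change by genotype alone was -0.013 with a 95% confidence interval from -0.23 to 0.20, the narrowest among the 10 genes. The interval ran from -0.18 to 0.15 when replicate number was a term.

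Notch3, a receptor known for its role in vascular smooth muscle and pericytes, spanned the widest range of CPM among the receptors; in relative terms Notch4, near the limit of detection, varied more. It lies on chr17:32257765-32303825, reverse strand, with 33 exon blocks. Counts were 1193 and 2516 for the WT libraries and 1539 and 2844 for the *Phf2* KO libraries, or 49.5, 97.0, 74.3 and 118.3 normalized CPM. Both replicates 2 were above both replicates 1, and within each number *Phf2* KO was above WT, so that the groups overlapped at 73.2 ± 33.6 against 96.3 ± 31.1 (n = 2 each). Its share of the receptors' RPKM ran from 22.7% in WT replicate 1 to 41.7% in *Phf2* KO replicate 2. The log2 ratio of *Phf2* KO to WT was 0.59 within number 1 and 0.29 within number 2. By genotype alone the log2 fold change was 0.40 (SE 0.39, 95% confidence interval -0.65 to 1.44), and leaving out single libraries moved it between 0.0024 (without WT replicate 1) and 0.94 (without WT replicate 2). With replicate number as a term it was 0.43 (SE 0.084), with an adjusted p of 2.18e-05 by edgeR and 0.0199 by DESeq2. Between the replicate numbers the difference was larger, at 0.82 higher in replicates 2 (adjusted p 1.06e-20, edgeR). The long noncoding gene Gm17276 overlaps Notch3 on the opposite strand.

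Notch1, a receptor known for its part in T cell development, was the receptor whose WT and *Phf2* KO libraries did not overlap at a level well above the limit of detection. It lies on chr2:26313423-26372183, reverse strand, with 40 exon blocks, and overlaps 0610009E02Rik and Gm13568 on the opposite strand. There were 700 and 792 counts in the WT libraries against 800 and 812 in the *Phf2* KO libraries, or 29.0, 30.5, 38.6 and 33.8 normalized CPM. Both *Phf2* KO libraries were above both WT libraries, at 36.2 ± 3.42 against 29.8 ± 1.05 (n = 2 each), and the 2 *Phf2* KO libraries differed more from each other than the 2 WT libraries did. The log2 fold change by genotype alone was 0.28 (SE 0.11), with a 95% confidence interval from -0.016 to 0.58. With replicate number as a term the interval ran from 0.089 to 0.47 and the adjusted p was 0.0483 by edgeR, whereas DESeq2 with the same term gave an adjusted p of 0.617. The log2 ratio was 0.41 within number 1 and 0.15 within number 2. Between the replicate numbers it differed by -0.062 on the log2 scale (adjusted p 0.733, edgeR).

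Notch4, a receptor known mainly from endothelium, was near the limit of detection. It lies on chr17:34701213-34725448, forward strand, with 31 exon blocks. Only 9 and 3 reads were counted in the WT libraries and 12 and 13 in the *Phf2* KO libraries, and WT replicate 2 was at the limit of 3 counts. The log2 fold change of 1.19 had a 95% confidence interval from -0.52 to 2.91 by genotype alone, and ran from 0.56 (without WT replicate 2) to 2.23 (without WT replicate 1) when a library was left out. It was 1.22 with replicate number as a term (adjusted p 0.149, edgeR). Because the filter let Notch4 through on the *Phf2* KO libraries, its groups had to differ in this direction. The endothelial markers Tie1 and Cldn5 were at 0 in each library, Emcn had at most 2 counts, Pecam1 at most 5 and Cdh5 and Esam at most 6, whereas Flt1 had 4361 to 5589 counts, Kdr 135 to 441, Tek 67 to 79 and Erg 18 to 54. The part of endothelial cells in the Notch4 counts was not tested.

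Of the ligands, Jag1 was abundant and Dll1 scarce. Jag1 lies on chr2:136907192-136942380, reverse strand, and has 25 exon blocks. There were 2574 and 3839 counts in the WT libraries against 2647 and 3787 in the *Phf2* KO libraries. Its normalized CPM were 106.8 and 147.9 against 127.8 and 157.5, where the groups overlapped and both replicates 2 were above both replicates 1. The log2 fold change was 0.16 (SE 0.20) by genotype alone and 0.17 with replicate number as a term (adjusted p 0.214, edgeR). Without WT replicate 1 its sign turned, to -0.041. Between replicate numbers Jag1 was 0.39 higher in replicates 2 on the log2 scale (adjusted p 3.9e-05, edgeR).

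Dll1, a Delta-type ligand, lies on chr17:15504318-15513836, reverse strand, with 12 exon blocks, and overlaps the noncoding A930024N18Rik on the opposite strand. The WT libraries held 28 and 26 counts and the *Phf2* KO libraries 26 and 38, or 1.16, 1.00, 1.25 and 1.58 normalized CPM. Both *Phf2* KO libraries were above both WT libraries in normalized CPM, although *Phf2* KO replicate 1 had no more counts than WT replicate 2. The log2 fold change was 0.39 with a 95% confidence interval from -0.41 to 1.20, and with replicate number as a term the adjusted p was 0.543 (edgeR). When a library was left out it ran from 0.21 (without *Phf2* KO replicate 2) to 0.54 (without *Phf2* KO replicate 1). Apart from Notch4, whose direction the filter fixed, Notch1 and Dll1 were the 2 of 9 Notch genes whose *Phf2* KO libraries both lay above both WT libraries, where 15.5% of all genes tested did so.

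Among the Hes and Hey genes, Hes1 took between 75.5% and 80.4% of the summed RPKM in each library. Hes1 encodes a repressor that also acts on its own promoter. It lies on chr16:30064470-30067882, forward strand, with 7 exon blocks. The WT libraries held 872 and 1168 counts and the *Phf2* KO libraries 869 and 1451, or 36.2, 45.0, 41.9 and 60.4 normalized CPM. *Phf2* KO replicate 2 was the highest, and WT replicate 2 was above *Phf2* KO replicate 1, so the groups overlapped at 40.6 ± 6.25 against 51.1 ± 13.0 (n = 2 each). The log2 ratio of *Phf2* KO to WT was 0.21 within number 1 and 0.42 within number 2. By genotype alone the log2 fold change was 0.33 (SE 0.22, 95% confidence interval -0.25 to 0.91), and it ran from 0.047 (without *Phf2* KO replicate 2) to 0.57 (without *Phf2* KO replicate 1) when a library was left out. With replicate number as a term it was 0.32 (SE 0.090), with an adjusted p of 0.00794 by edgeR and 0.319 by DESeq2. Between replicate numbers it was 0.42 higher in replicates 2 (adjusted p 3.71e-05, edgeR).

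Hey2, known from heart and artery development, was the second of these repressors by level. It lies on chr10:30552165-30562607, reverse strand, with 5 exon blocks, and its upstream window is the one with the Rbpj core. There were 212 and 309 counts in the WT libraries and 145 and 270 in the *Phf2* KO libraries, or 8.80, 11.9, 7.00 and 11.2 normalized CPM. Within each number the *Phf2* KO library was below the WT library, with log2 ratios of -0.33 and -0.084, and the groups overlapped. The log2 fold change was -0.18 (SE 0.30) by genotype alone, and -0.19 with an adjusted p of 0.508 (edgeR) with replicate number as a term. Its sign turned without WT replicate 2 (0.038) or without *Phf2* KO replicate 1 (0.12). Between replicate numbers Hey2 was 0.55 higher in replicates 2 (adjusted p 0.00127, edgeR).

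Hey1 and Heyl, close relatives of Hey2, were low. Hey1 (chr3:8663362-8667039, reverse strand) had 54 and 80 counts in the WT libraries and 59 and 96 in the *Phf2* KO libraries, or 2.24, 3.08, 2.85 and 3.99 normalized CPM. Its log2 ratios within the numbers were alike, 0.35 and 0.37, but the adjusted p with replicate number as a term was 0.382 (edgeR, log2 fold change 0.36, SE 0.22). By genotype alone it was also 0.36, from 0.097 (without *Phf2* KO replicate 2) to 0.60 (without WT replicate 2). Heyl (chr4:122910799-122927118, forward strand) had 92 and 147 against 108 and 121 counts, or 3.82 and 5.67 against 5.21 and 5.03 normalized CPM. Its log2 ratio was 0.45 within number 1 and -0.17 within number 2, and its log2 fold change was 0.11 with a 95% confidence interval from -0.56 to 0.78 by genotype alone and 0.12 (adjusted p 0.815, edgeR) with replicate number. Without WT replicate 1 it was -0.13. The 4 repressors thus did not share a direction within both numbers, and none of the differences between them was tested.

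**Figure D2:**
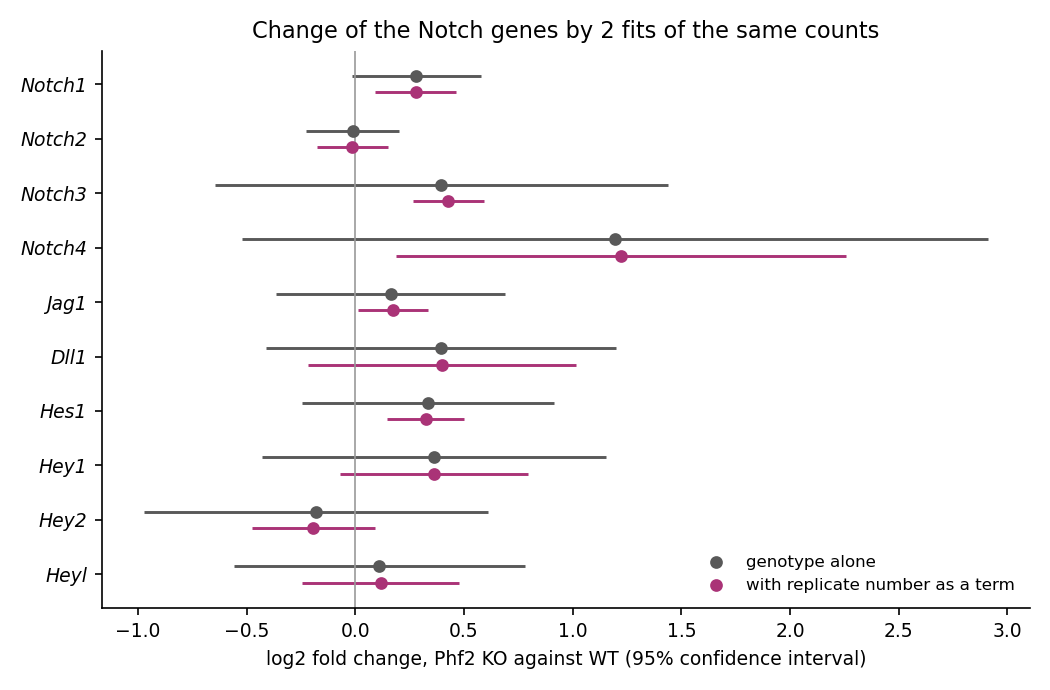
Log2 fold change of *Phf2* KO against WT for the 10 Notch genes with 95% confidence intervals, by edgeR on genotype alone (grey) and with replicate number as a term (purple), from 2 libraries a group. Each grey interval holds 0, and the purple points lie close to the grey ones while their intervals are narrower, as for Notch3 (0.26 to 0.59 in place of -0.65 to 1.44). The purple intervals rest on a spread pooled over all genes, not on that of each gene.

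Within the replicate numbers, 6 of the 9 genes other than Notch4 were higher in *Phf2* KO in both numbers (Notch1, Notch3, Jag1, Dll1, Hes1 and Hey1), 1 was lower in both (Hey2), and Notch2 and Heyl differed in sign. Of all genes tested, 32.6% were higher in both. Between the replicate numbers, 4 of the 10 genes (Notch3, Jag1, Hes1 and Hey2) were called, all 4 higher in replicates 2, where 12.6% of all genes were higher in replicates 2. DESeq2 called 3 of these 4, all but Hey2. Over all genes it called 473 of 13504 higher in replicates 2. For each of these 4 genes the difference between replicate numbers was larger in size than that between genotypes by the same fit, which was not tested.

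**Figure D3:**
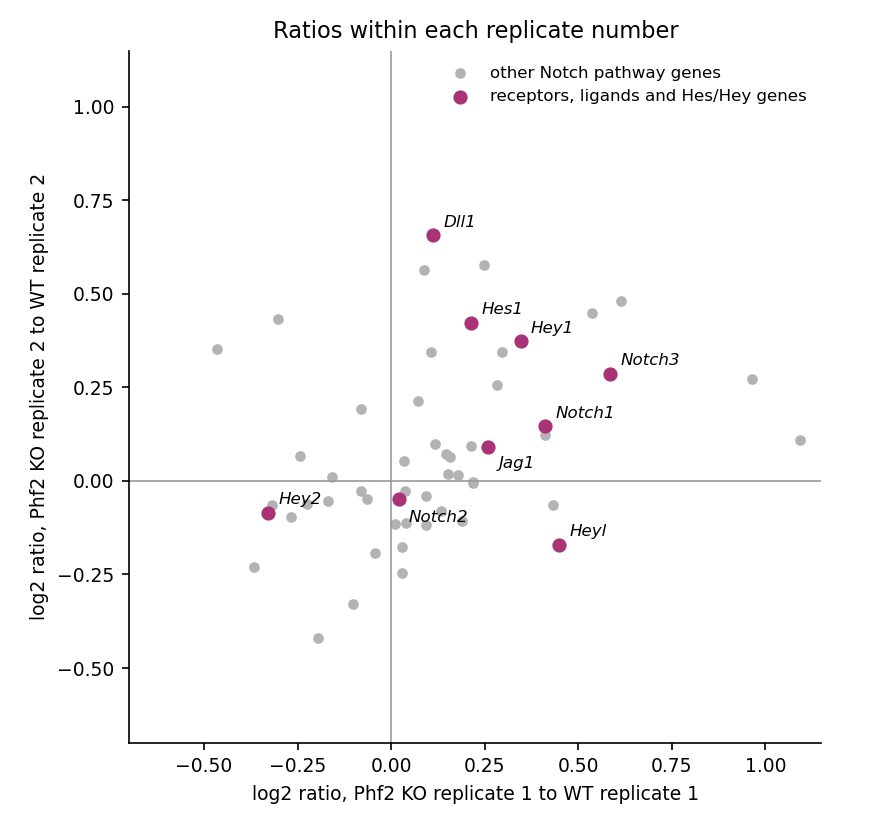
Log2 ratio of *Phf2* KO to WT normalized CPM within replicates 1 (x axis) and within replicates 2 (y axis) for 9 Notch genes (purple) and 45 other pathway genes (grey); Notch4 is left out because WT replicate 2 was at the limit of 3 counts. Notch1, Notch3, Jag1, Dll1, Hes1 and Hey1 lie above 0 on both axes, Hey2 lies below 0 on both, and Notch2 is next to the origin.

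The rest of the pathway was described with 53 further genes, 45 of which were tested. By genotype alone none was called by edgeR's quasi-likelihood test. At an unadjusted p under 0.05 only Hes6 was higher and only Poglut1 lower, 2 of the 45, near the 4.21% of all genes that passed. Once replicate number was a term, 8 were called higher in *Phf2* KO and 1 lower, or 20.0% of the 45, where 11.0% of all genes tested were called, 5.77% higher and 5.20% lower. By genotype alone these 9 had log2 fold changes between -0.30 and 0.61 and an adjusted p of 0.999 each. The median of the 45 log2 fold changes was 0.046 by genotype alone. In DESeq2 with the same term 1 was called of 31 with an adjusted p, Tle2, where 3.67% of all genes were.

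Of 15 genes that modify or cut the receptors, 4 were called higher and 1 lower with replicate number as a term, beside 11.0% of all genes called. DESeq2 with that term called 0 of the 11 to which it gave an adjusted p. Furin, the protease of receptor maturation, was at 177.8 and 201.0 normalized CPM in WT and 236.4 and 218.9 in *Phf2* KO, with a log2 fold change of 0.27 (adjusted p 0.0260, edgeR with replicate number). Adam17, an ADAM protease, was at 70.9 and 59.0 against 76.4 and 75.0, with 0.23 (adjusted p 0.0749). Both *Phf2* KO libraries lay above both WT libraries for 5 of the 15 genes, these 2 proteases among them, and below for 1. Of all genes tested, 15.5% lay above in this way and 18.0% below. Psenen, the smallest subunit of gamma-secretase, was at 2.70 and 3.58 against 5.26 and 4.33, with 0.60 (adjusted p 0.0377). Aph1c, another subunit, was at 20.0 and 6.40 against 29.0 and 8.74, with 0.50 (adjusted p 0.00192). Aph1c and Aph1b are near-identical copies whose short reads can be split between them, so the Aph1c value is uncertain. By genotype alone it turned sign without *Phf2* KO replicate 1 (-0.59) or without WT replicate 2 (-0.10), and its replicates 1 were above its replicates 2 in both groups. Poglut1, which adds O-linked glucose to the receptors, was at 51.0 and 45.6 against 39.6 and 38.9, with -0.30 (adjusted p 0.0190). Ncstn, the subunit of gamma-secretase that binds substrate, was the highest of the 15 per length and lay between 198.8 and 204.0 normalized CPM in the 4 libraries, with a log2 fold change of 0.0055.

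In the nucleus, Rbpj, the DNA-binding partner of Notch, was counted 282 to 347 times a library and was at 14.4 and 11.8 normalized CPM in WT and 13.6 and 13.4 in *Phf2* KO. Of the 13 genes of the nuclear complex and its co-repressors, 2 were called higher with replicate number as a term (15.4%, near the 11.0% of all genes called), the Groucho-type co-repressors Tle2 and Tle4. Tle2 was at 39.2 and 65.3 in the WT libraries and 59.9 and 91.1 in the *Phf2* KO libraries, with a log2 fold change of 0.54 (adjusted p 3.54e-08 by edgeR and 0.00111 by DESeq2, both with replicate number). Like Notch3, Tle2 was higher in *Phf2* KO within both numbers (0.61 and 0.48) and higher in replicates 2 than in replicates 1 of each group. Tle4 was at 10.0 and 5.86 against 11.9 and 8.74, with 0.40 (adjusted p 0.0733, edgeR), and was lower in replicates 2. When a library was left out, the log2 fold change by genotype alone ran from 0.20 (without *Phf2* KO replicate 2) to 0.93 (without WT replicate 2) for Tle2 and from 0.026 (without WT replicate 2) to 0.83 (without WT replicate 1) for Tle4. Tle5, a short member of that family counted under its older symbol Aes, had the highest level per length of this list and was not called.

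Of 13 genes of ligand endocytosis and receptor turnover, 1 was called with replicate number as a term (7.69%, beside 11.0% of all genes tested). This was Dtx3, a Deltex-type ubiquitin ligase, which was higher in *Phf2* KO. It was at 126.5 and 183.2 normalized CPM in WT and 153.8 and 219.0 in *Phf2* KO, with 0.27 (adjusted p 0.0221, edgeR), and it was also the highest of that list per length. The log2 ratio was 0.28 within number 1 and 0.26 within number 2, and by genotype alone it turned sign without *Phf2* KO replicate 2 (-0.0092). Among the further ligands, Dlk1, a noncanonical ligand known from preadipocytes, was by far the most abundant, at 15005 to 21004 counts a library, and was not called. Dll3 had at most 1 count in a library, and Dll4 between 2 and 4.

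Of the remaining Hes genes and feedback targets, Hes6, a relative that is known to oppose Hes1, was at 24.1 and 24.7 normalized CPM in the WT libraries and 29.5 and 31.4 in the *Phf2* KO libraries. Both *Phf2* KO libraries lay above both WT libraries, where 15.5% of all genes tested did so. The log2 fold change with replicate number as a term was 0.32 (adjusted p 0.0228, edgeR). Hes2, Hes3 and Hes5 had at most 3 counts in each library and Helt had 0, so no level could be set for them at this depth. Nrarp, a feedback inhibitor that is a common readout of Notch activity, had 0 and 1 counts in the WT libraries and 0 and 5 in the *Phf2* KO libraries.

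**Figure D4:**
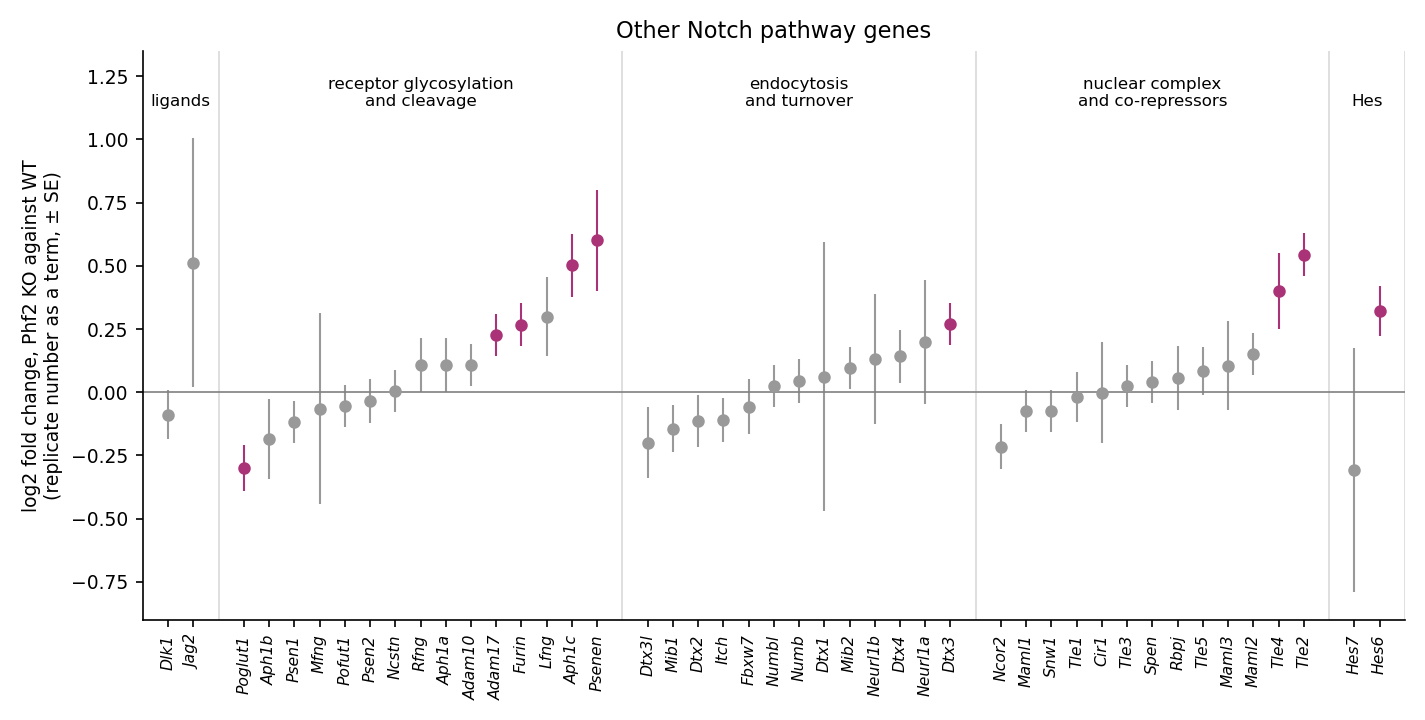
Log2 fold change of *Phf2* KO against WT with its SE for the 45 other Notch pathway genes tested, by edgeR with replicate number as a term, grouped by role; purple marks an adjusted p under 0.1. The 9 purple points are Poglut1 below 0 and Adam17, Furin, Aph1c, Psenen, Dtx3, Tle4, Tle2 and Hes6 above 0, between 0.23 and 0.60.

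Markers of cell types that use or carry these genes were measured beside them. All 9 fibroblast markers were abundant, led by Col1a1. In 5 of the 9 (Col1a1, Col3a1, Dcn, Lum and Fn1) both *Phf2* KO libraries lay below both WT libraries, where 18.0% of all genes did so. With replicate number as a term edgeR called Lum lower (DESeq2 adjusted p 0.619), and DESeq2 called Col3a1 lower (0.0545, edgeR adjusted p 0.304). Macrophage markers, led by Lyz2, summed to 3530 and 4043 normalized CPM in replicates 1 of WT and *Phf2* KO and to 770.2 and 1225 in replicates 2, and 12 of 12 were called lower in replicates 2, where 13.6% of all genes were. Within each number their sum was higher in *Phf2* KO. With that term edgeR called 7 of 12 higher, beside 5.77% of all genes, and DESeq2 called 5 of the 11 to which it gave an adjusted p, beside 3.67% of all genes. Notch3, Jag1, Hes1 and Hey2 were highest in replicates 2, where the macrophage sum was lowest. Mural cell markers, led by Acta2 and Pdgfrb, summed to 1538 and 2282 in the WT libraries and 1717 and 2112 in the *Phf2* KO libraries. In replicates 2, 6 of 9 were called higher and 1 lower, beside 12.6% and 13.6% of all genes. In edgeR's fit with replicate number, 2 mural markers (Rgs5 and Mcam) were called higher in *Phf2* KO and 3 (Cspg4, Abcc9 and Des) lower, of which DESeq2 called Mcam and Des. Over all genes, edgeR with that term called 5.77% higher and 5.20% lower, and DESeq2 called 3.67%. Endothelial markers summed to between 184.4 and 286.9, most of it Flt1, and edgeR with replicate number called 1 of the 4 tested, Kdr, lower. The part of these cells in the values of the Notch genes was not tested. Skeletal muscle markers had at most 14 counts in a library and none was tested. Of the neural markers, Sox10 had 441 to 524 counts and Sox2 47 to 77, and Nes was called higher by edgeR with replicate number (adjusted p 0.0647) but not by DESeq2 (0.624). The 1 epithelial marker tested was not called, and epithelial markers summed to less than 1 normalized CPM in each library.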

How the data were processed

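RNA-seq of 2 WT and 2 *Phf2* KO libraries was analysed. Single reads of 50 nt were trimmed by the authors (Trim Galore), cleared of ribosomal RNA (bowtie2), mapped to mm9 by STAR as reverse stranded, and assigned to genes by featureCounts, whose strand setting is not named. Versions and the annotation release are not given in the sources used here. The deposited counts are whole reads per gene symbol without normalization. The authors' DESeq2 table (mean normalized signal, fold changes, standard errors, Wald statistics, p-values and a direction mark) was not used.

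The counts were fitted with edgeR 4.0.16 under R 4.3.3 (filterByExpr, TMM, glmQLFit, glmQLFTest), Benjamini-Hochberg adjustment over all 13668 genes tested and a threshold of 0.1. The SE is the absolute log2 fold change divided by the square root of F. Alternatives were limma-voom (limma 3.58.1), DESeq2 1.42.0, other scalings, filters and thresholds, the replicate block, and leaving out single libraries. The fits were run on simulated counts in which every gene had the same relative spread. That run therefore cannot show whether a spread pooled over genes is right for these data. Figures were drawn with Matplotlib 3.10.9 (Python 3.11.15, pandas 2.3.3, NumPy 2.4.6). Positions and exonic lengths came from a GENCODE annotation of NCBIM37, on which 121 of 121 listed symbols were placed.

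Neither labels nor paper state a pairing. Over 13668 genes, replicate differences in log2(CPM + 0.5) of the 2 genotypes had a Pearson correlation of 0.809 (genes are not independent replicates). With 2 pairs this remains a hint, and the main result has no block. The p-values by genotype alone measure the spread between these 4 samples, moderated by that of other genes. With replicate number as a term, edgeR's p-values rest on a spread pooled over all genes. Lum is an example: its log2 ratios were -1.15 and -0.32 within the numbers, yet its SE was 0.084 (adjusted p 1.49e-15, edgeR). DESeq2 with the same term gave 0.619. The genes, lists, tests and the rule for naming genes were chosen with earlier results of these data known. Named are the 10 Notch genes, Phf2, called genes of the other lists, the highest per length and those not detected, and leading markers. Rbpj, Dll4, Nrarp and the other single markers were named after their values were seen.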

Additional observations from a re-analysis of the deposited data

How the results depend on the processing

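By genotype alone the count of Notch genes called was 0 under each other test (DESeq2, limma-voom), scaling, filter and threshold and with each library left out, with 0 or 1 at an unadjusted p under 0.05. For other pathway genes it was 0 as well, with 0 to 3 at an unadjusted p under 0.05. Over all genes edgeR called 1, DESeq2 64, and limma-voom 0 (575 at an unadjusted p under 0.05). It was 0 at an adjusted p under 0.05 (576 unadjusted), and with a library left out from 0 to 0 (237 to 755 unadjusted), where the lone sample is assumed to vary like the other group. The replicate block (1500 genes, 3 Notch genes, 9 other pathway genes) gave 1116, 3 and 7 at an adjusted p under 0.05, and 297, 1 and 1 in DESeq2. Genes differing between replicate numbers were 3580 by edgeR and 1361 by DESeq2. The cause of these differences was not tested.

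Of 59 log2 fold changes of the 10 Notch genes under other tests, scalings and filters, 59 kept their sign and call. With a library left out, 34 of 40 did and 6 turned sign: the ranges were -0.050 to 0.020 for Notch2, -0.041 to 0.40 for Jag1, -0.56 to 0.12 for Hey2 and -0.13 to 0.41 for Heyl. Among other pathway genes the ranges that crossed 0 were -0.59 to 1.57 for Aph1c, -0.0092 to 0.54 for Dtx3, -0.20 to 0.024 for Dlk1 and -0.0090 to 0.018 for Ncstn, and Ncstn was -0.0058 with library size alone. Phf2 fell by 0.79 by genotype alone (adjusted p 0.999, edgeR) and was called by DESeq2 (0.00321) and with the replicate block. Notch4, Dll1, Hey1 and Heyl had at most 147 counts a library, so small differences in them were not detectable at this depth.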
